A study of Arabidopsis thaliana with 13 samples.

Results

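Gene expression was compared between wox5-1 and wild-type QC-marker cells of the Arabidopsis thaliana root, the cells in which a WOX5::GFP reporter is active. The comparison used 7 of the 13 libraries of the study, 4 of wox5-1 and 3 of the wild type, and 18682 of the 33560 genes in the deposited table, those that reached 1 FPKM in 3 or more of the 7 libraries. FPKM scales the sequenced fragments of a gene by the length of its transcript and by the mapped fragments of the library. Within the 18682 genes, the 10423 that reached 1 FPKM in every wild-type library, called detected genes here, are set apart from the 8259 that did not, because the wild-type libraries were shallow.

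All plants were of the Col-0 ecotype, and both genotypes carried the reporter. wox5-1 is a mutant allele of WOX5 itself, so the cells of both genotypes were sorted by the activity of that gene's promoter and not by their position. Roots were digested to protoplasts 5 days after germination and sorted by fluorescence, and RNA was amplified with a low-input kit. The other 6 libraries were CEI-marker cells (CYCD6::GUS-GFP, marking initials of cortex and endodermis), 3 of wox5-1 and 3 of the wild type, and enter here in the shared estimate of the spread and in 1 test of the difference.

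The quiescent centre (QC) is a small group of rarely dividing cells in the root stem cell niche, and the initials around it form the files of the root. WOX5 is a homeobox transcription factor made in the QC. It keeps the neighbouring stem cells of the root cap undifferentiated and acts as a repressor through corepressors of the TOPLESS family. PLETHORA transcription factors, auxin and peptide signals act in the same niche.

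Depth differed with genotype. As estimated from the steps between low FPKM values, wox5-1 libraries held about 24900000 to 38100000 mapped fragments and wild-type libraries about 5800000 to 8200000. Wild-type library 2 stood apart: 19783 genes were listed at 0 in it, against 6163 to 9899 in the wox5-1 libraries and 10788 and 12971 in wild-type libraries 1 and 3. The median over genes of the standard deviation of log2(FPKM + 1) was 0.26 among wox5-1 libraries and 0.99 among wild-type libraries, and 0.41 between wild-type libraries 1 and 3 alone. The median log2 change, wox5-1 minus wild type, was 0.42 over all genes tested, 1.00 over the genes not detected in every wild-type library and −0.01 over detected genes. Other scalings moved the median over all genes tested to 0.27 (median of ratios) and −0.07 (quantile normalization). The genotypes differ throughout in depth, so an effect of genotype cannot be told apart from one of depth, and list medians are read here against the median of all genes.

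WOX5 came first as a check of the labels. Its FPKM was 0, 0.114, 0.0785 and 0.0528 in the wox5-1 libraries, against 255, 262 and 163 in the wild-type libraries. All 4 mutant libraries were at or near 0 and all 3 wild-type libraries were high, wild-type library 2 included. The log2 change was −7.71 (SE 0.92, limma, Benjamini-Hochberg adjusted p = 0.00753). In the labels and in this gene the genotypes matched.

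Most genes that passed the test were higher in wox5-1. limma on log2(FPKM + 1), with weights for the spread of each group, called 77 genes higher (0.412% of genes tested) and 7 lower (0.0375%) at an adjusted p under 0.05. Under quantile normalization the split was 315 higher and 88 lower. In all 84 genes the 4 wox5-1 values and the 3 wild-type values did not overlap, as in 25.6% of all genes tested (18.9% with wox5-1 higher and 6.63% with wox5-1 lower). At an unadjusted p under 0.05, 2420 of the 18682 genes tested were higher and 249 lower (1.33%). Counts of list members at that threshold are read against these. Without weights by group, 773 genes were called higher (4.14%) and 90 lower (0.482%), and all 84 genes were among them. Of the 77 higher genes, 25 were detected in every wild-type library and 52 were not. Of these 52, 46 were below 1 FPKM in wild-type library 2, 29 in library 3 and 10 in library 1. All 7 lower genes were detected genes, as the filter required of any gene lower without overlap. With a wild-type value under 1 FPKM, such a gene could not reach 1 FPKM in 3 libraries. A gene higher in wox5-1 could enter through the wox5-1 libraries alone, so the filter did not treat the 2 directions alike. With no filter 121 genes were called higher and 14 lower. Because 1 is added to each FPKM before the logarithm, the changes printed here are too small for genes of low level.

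**Figure D1:**
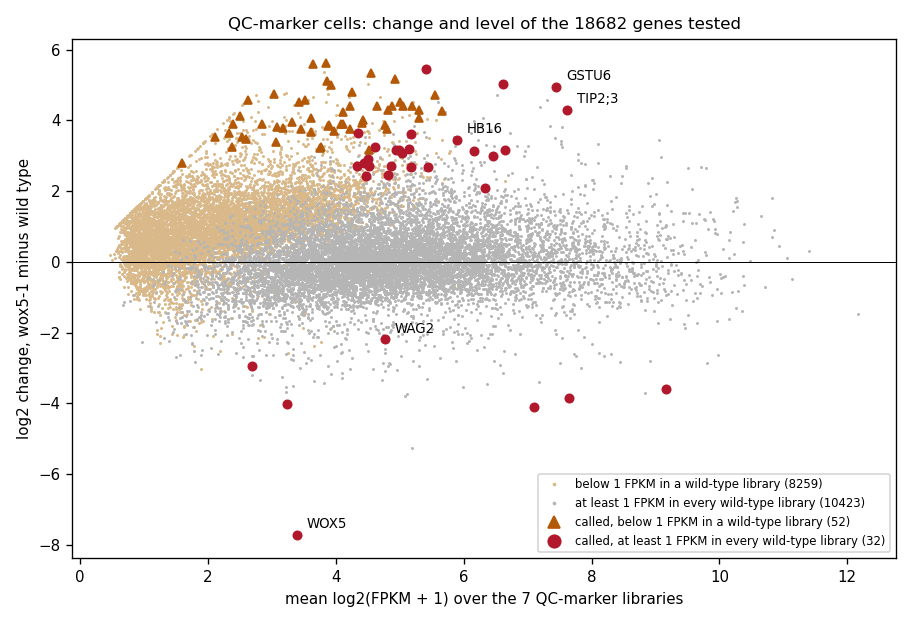
Change (wox5-1 minus wild type, log2) against mean level over the 7 QC-marker libraries, with 1 point per gene tested. Called genes are drawn large, triangles for the 52 below 1 FPKM in a wild-type library and circles for the 32 detected ones, and the calls below the zero line are 7 circles, WOX5 lowest.

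Testing the 10423 detected genes by themselves, with p-values adjusted over them, called 201 higher (1.93%) and 35 lower (0.336%). With median-of-ratios scaling, which moved the median change of the detected genes to −0.16, that test called 53 higher and 24 lower. The wild-type libraries decided how many genes passed. Without wild-type library 2 the calls over all genes tested were 993 higher (5.32%) and 134 lower (0.717%), and they included all 84 genes. Without wild-type library 1 or 3 limma called 0 genes over all genes tested, with 1672 and 1468 genes at an unadjusted p under 0.05. In the detected genes it then called 14 higher and 3 lower without library 1, and 1 higher (AT4G33467) and 1 lower (WOX5) without library 3.

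**Figure D2:**
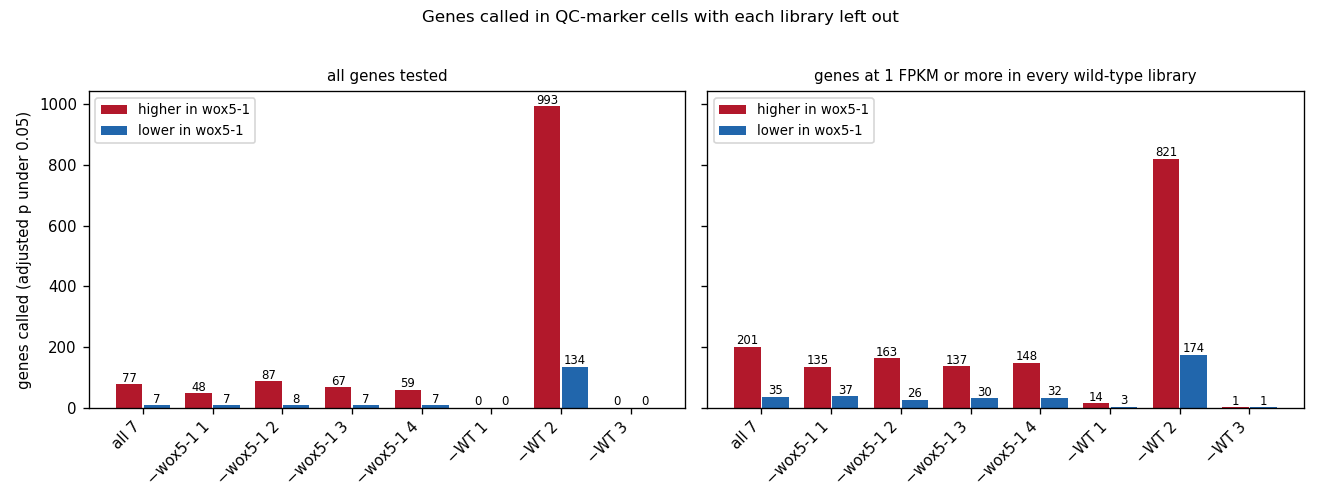
Number of genes called (adjusted p under 0.05) with all 7 QC-marker libraries and with each left out in turn, higher and lower in wox5-1, over all genes tested on the left and over detected genes on the right. Leaving out a wox5-1 library gave 48 to 87 higher calls on the left, while leaving out wild-type library 2 gave 993 and leaving out wild-type library 1 or 3 gave 0.

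Among the genes lower in wox5-1, WAG2 encodes a protein kinase of the AGC family that phosphorylates PIN auxin carriers. WAG2 stood at 11.8, 12.9, 14.5 and 13.7 FPKM in wox5-1, against 76.6, 74.8 and 44.7 FPKM in the wild type. The groups did not overlap, and wild-type library 2 lay beside library 1. The WAG2 change was −2.19 (SE 0.43, adjusted p = 0.0406). Its close relative WAG1 had 6.95, 9.72, 9.79 and 17.3 FPKM in wox5-1, against 62, 747 and 72.4 FPKM in the wild type. Wild-type library 2 was far above libraries 1 and 3, and without it the WAG1 change was −2.58. WAG1 did not pass over all genes (log2 change −3.73, adjusted p = 0.133) and passed among detected genes (adjusted p = 0.042). In CEI-marker cells the changes of WAG2 and WAG1 were 1.11 and 0.94, and neither difference between the cell types passed (adjusted p = 0.271 and 0.607).

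The other 5 called decreases were chosen for mention after their values were seen, since RefSeq gives them no symbol. AT5G10340, an F-box family protein, had 2.37, 1.96, 1.6 and 1.56 FPKM in wox5-1, against 73.3, 27.6 and 46.4 FPKM in the wild type (−4.03, SE 0.55, adjusted p = 0.00967). AT3G52700, an uncharacterized protein, had 1.83, 1.66, 1.41 and 1.88 FPKM in wox5-1, against 19.5, 20.7 and 18.5 FPKM in the wild type (−2.93, SE 0.56, adjusted p = 0.0364). Its values lay close together within each genotype. The remaining 3 were far more abundant: AT2G16586 had 159 to 261 FPKM in wox5-1 and 1215 to 3690.2 FPKM in the wild type, AT3G41762 had 48.5 to 80.6 FPKM in wox5-1 and 517 to 1422 FPKM in the wild type, and AT2G01008 had 33.2 to 49.2 FPKM in wox5-1 and 391 to 1072 FPKM in the wild type. Their changes were −3.61, −3.84 and −4.10. The 3 genes ranked the libraries of each genotype in the same order. RefSeq places AT2G01008 beside a miRNA gene and, next along, the rRNA gene AT2G01010, and places AT3G41762 beside the noncoding RNA gene AT3G41761. The sources used here do not say whether counting used strand, and without it reads from overlapping genes are not separable.

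**Figure D3:**
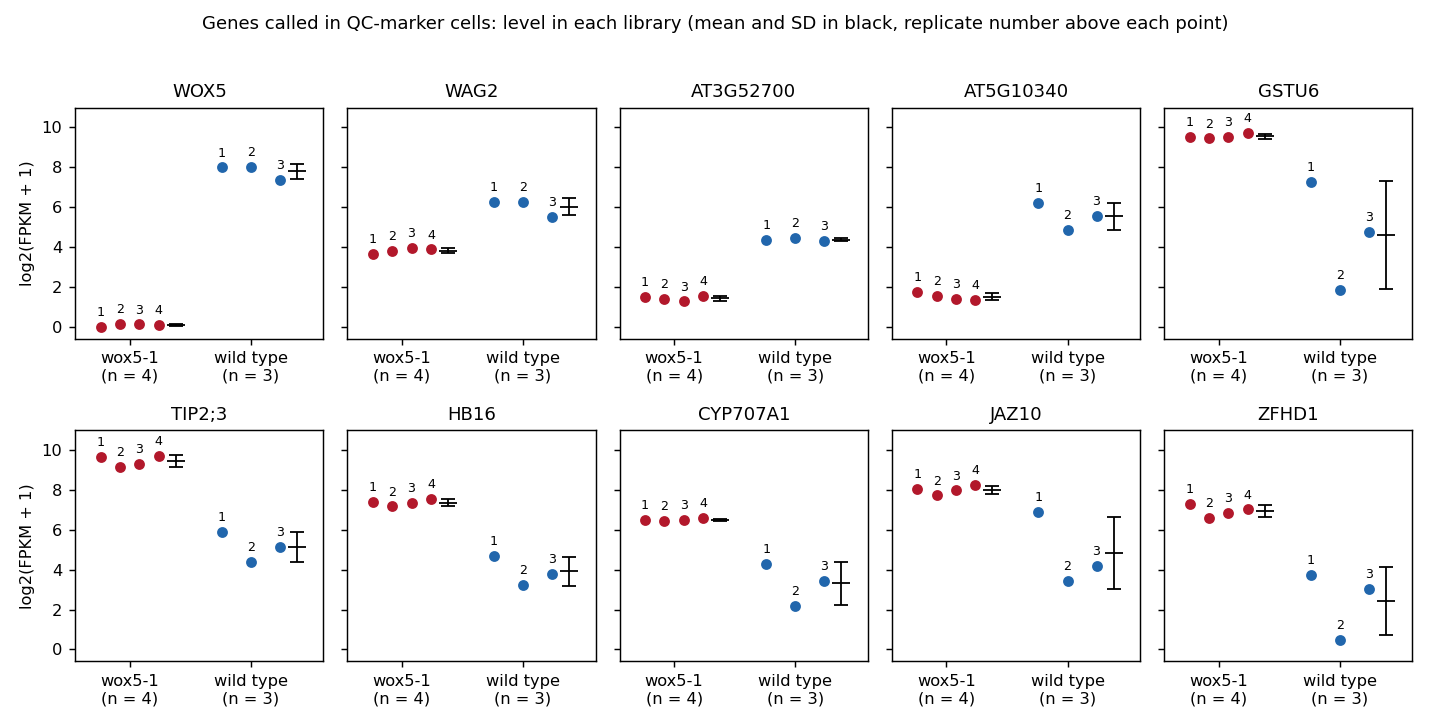
Level of 10 called genes in each library, as log2(FPKM + 1), wox5-1 on the left and wild type on the right of each panel, with the replicate number above each point and the group mean and SD in black. The groups do not overlap in any panel. Wild-type library 2 is the lowest wild-type value for AT5G10340, GSTU6, TIP2;3, HB16, CYP707A1, JAZ10 and ZFHD1 but not for WOX5, WAG2 or AT3G52700.

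Further detected genes were lower by the test over detected genes alone, and the following were also chosen after their values were seen. RTFL15, of a family of small peptides that alter organ shape when overexpressed, had 13.5, 14, 15.2 and 17.8 FPKM in wox5-1, against 120.2, 108 and 105 FPKM in the wild type (−2.80, adjusted p = 0.0247 over detected genes and 0.112 over all). SHP1, a MADS-box factor known from fruit valve margins, had 2.1 to 3.26 FPKM in wox5-1 and 19.9 to 25.4 FPKM in the wild type (adjusted p = 0.0101 over detected genes). Both genes had tight, separate values in all 7 libraries. BR6OX2, which catalyses the last steps to brassinolide, had 1.94 to 2.61 FPKM in wox5-1, against 12.1, 44.6 and 9.93 FPKM in the wild type (adjusted p = 0.0296 over detected genes). The AT-hook gene SOB3, the glucosinolate sulfotransferase SOT17 and the KANADI gene ATS were lower in the same test, with changes of −2.41, −2.16 and −1.89.

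Of the genes that mark the QC and the niche, only WOX5 was called. The other 14 genes of that list were all detected, and 6 of them were lower in wox5-1 without overlap while RGF2 was higher without overlap. Over all detected genes, wox5-1 was lower without overlap in 11.9% and higher without overlap in 14.0%. MYB56, also known as BRAVO, a repressor of QC division, had 5.33, 2.79, 3.93 and 4.69 FPKM in wox5-1, against 85.6, 29.4 and 61.6 FPKM in the wild type. Its groups lay far apart, yet its log2 change of −3.43 (SE 1.099) did not pass (adjusted p = 0.181 over all genes and 0.0501 over detected genes). Without wild-type library 2 it passed (−3.85, adjusted p = 0.0118). AGL42, a MADS-box gene used as a QC marker, had 7.06 to 11.4 FPKM in wox5-1 and 16.3 to 32.9 FPKM in the wild type (−1.13, adjusted p = 0.431). TEL1, BBM, NTT and WIP5 had changes of −1.82, −1.05, −0.69 and −0.90, without overlap and without passing.

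PLT1, PLT2, PLT3 and SCR had overlapping values in the genotypes. PLT1, a master regulator of the niche, had 149, 197, 171 and 111 FPKM in wox5-1, against 218, 96.7 and 229 FPKM in the wild type (−0.14, SE 0.56, adjusted p = 0.937). PLT2 and PLT3 had changes of −0.29 and −0.60, and SCR, needed for QC identity, had 0.09. RGF2, a peptide that acts through the PLETHORA genes, had 841, 784, 863 and 824 FPKM in wox5-1, against 23.3, 248 and 335 FPKM in the wild type (2.71, SE 1.46, adjusted p = 0.421). The median change of the 15 genes was −0.60, against −0.01 over detected genes, as all 15 were detected, and 0.42 over all genes tested. The summed level of the list was 2699 to 3012 FPKM in wox5-1 and 1901 to 2928 FPKM in the wild type (exact permutation test, p = 0.143). RGF2 and RGF3 carried 2082 to 2400.2 FPKM of that sum in wox5-1 and 693 to 1729 FPKM in the wild type. Without them, a split chosen after the values were seen, the other 13 genes summed to 529 to 769 FPKM in wox5-1 and 1080 to 1209 FPKM in the wild type, and with WOX5 also left out the wild type summed to 818 to 1035 FPKM. In both cases the genotypes did not overlap and the direction was opposite to that of the whole list. In sorted bulk cells, fewer cells of a type and less RNA per cell cannot be told apart.

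AN3, also called GRF-INTERACTING FACTOR 1, and PAN (PERIANTHIA) are named with WOX5 in the title of the study and did not pass. AN3, a transcriptional coactivator of growth-regulating factors, had 19.1, 30.4, 25.4 and 17.2 FPKM in wox5-1, against 105, 107 and 76.3 FPKM in the wild type. All wild-type values lay above all mutant ones, but the gene missed the threshold (−2.03, SE 0.97, adjusted p = 0.357). PAN, a bZIP transcription factor, had 17.63, 24.9, 12.7 and 11.8 FPKM in wox5-1, against 24.9, 0 and 31.2 FPKM in the wild type. It was listed at 0 in wild-type library 2, and its direction turned with that library: the change was 0.86 (SE 1.09, adjusted p = 0.756) with it and −0.76 without it. TPL, the corepressor TOPLESS, had a change of 1.32 (SE 0.59, adjusted p = 0.332), and of 0.36 without wild-type library 2. In the list of WOX5 partners and CDF factors 0 of 13 genes were called, with 1 at an unadjusted p under 0.05.

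Of the genes higher in wox5-1, the 12 with the largest increases among detected genes that bear a symbol and were called over all genes were GSTU6, TIP2;3, HB16, ABCB15, CYP707A1, JAZ10, HEMA2, SIS, DEAR3, ECT8, TPS8 and RMA1. GSTU6, a tau-class glutathione transferase, had 741, 699, 735 and 851 FPKM in wox5-1, against 153, 2.62 and 25.9 FPKM in the wild type (4.94, SE 0.75, adjusted p = 0.0141). The wild-type libraries differed among themselves by more than the mutant ones did, and without wild-type library 2 the change was 3.55. GSTU6 belongs to a family of close paralogs, whose fragments may be assigned to the wrong gene. The vacuolar aquaporin TIP2;3 had 816, 567, 627 and 849.7 FPKM in wox5-1, against 59, 20.23 and 35 FPKM in the wild type (4.30, SE 0.58, adjusted p = 0.00967). HB16, a homeodomain-leucine zipper factor, had 169.9, 144, 161 and 187 FPKM in wox5-1, against 25.3, 8.55 and 13 FPKM in the wild type (3.45, SE 0.49, adjusted p = 0.0117). For both genes every mutant library was far above every wild-type library.

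CYP707A1, which breaks down abscisic acid, had 89.9, 85.5, 90.0 and 94.9 FPKM in wox5-1, against 18.9, 3.59 and 9.83 FPKM in the wild type. Its 4 mutant values were nearly equal while the wild-type values spread over a wide range (3.19, SE 0.50, adjusted p = 0.0141). ABCB15, an ABC transporter of the B class, had 52.4 to 81.9 FPKM in wox5-1, against 9.37, 4.37 and 4.53 FPKM in the wild type (3.26, SE 0.59, adjusted p = 0.0284). HEMA2, a glutamyl-tRNA reductase of tetrapyrrole synthesis, and TPS8, of the trehalose-phosphate synthase family, rose by 3.16 and 2.71. DEAR3, a factor of the DREB group, ECT8, of a family that reads methylated adenosine in RNA, and RMA1, a membrane-anchored ubiquitin ligase, rose by 2.80, 2.72 and 2.69. SIS rose by 3.16.

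A pair of detected genes without a symbol rose by more than any of these, and were chosen after their values were seen. AT4G33467, an uncharacterized protein, had 245, 236, 180.2 and 198 FPKM in wox5-1, against 5.53, 1.85 and 5.2 FPKM in the wild type (5.46, SE 0.68, adjusted p = 0.00753). AT5G63270, of the RIN4 family, had 358, 328, 413 and 729 FPKM in wox5-1, against 14.6, 16.6 and 7.55 FPKM in the wild type (5.03, SE 1.03, adjusted p = 0.0468). In both genes the wild-type values were low and close together.

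Outside the detected genes, the 5 largest called increases with a symbol were MSRB8, AAP1, AHA7, RAP2.9 and ZFHD1. ZFHD1, a zinc-finger homeodomain factor tied to water deficit, had 155, 97.1, 114 and 129.5 FPKM in wox5-1, against 12.36, 0.396 and 7.18 FPKM in the wild type (4.53, SE 0.62, adjusted p = 0.00967). AAP1, an amino acid permease, had 71.8, 58.7, 44.4 and 96.9 FPKM in wox5-1, against 4.85, 0 and 0.174 FPKM in the wild type (5.12, SE 0.80, adjusted p = 0.0141). AHA7, a plasma membrane proton pump, had 70.6, 74.8, 75.2 and 92.7 FPKM in wox5-1, against 4.12, 2.75 and 0.202 FPKM in the wild type (4.79, SE 0.81, adjusted p = 0.0206). The low wild-type value sat in library 2 for ZFHD1 and in library 3 for AHA7, while for AAP1 libraries 2 and 3 were both near 0. MSRB8, a methionine sulfoxide reductase, and RAP2.9, another factor of the DREB group, rose by 5.18 and 4.58. The largest called increase of all was that of AT3G17100, which has no symbol in RefSeq: it had 99.1, 87.7, 36.05 and 102 FPKM in wox5-1, against 0.912, 0 and 0.952 FPKM in the wild type (5.62, SE 0.89, adjusted p = 0.0141). It was below 1 FPKM in every wild-type library and so entered the test through the wox5-1 libraries alone, where it was high.

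Jasmonate repressors and breakdown genes had the highest median of the lists over all tested members. All lists were chosen with earlier results of these data known. Their counts and medians are therefore descriptions and give no independent support. JAZ proteins repress jasmonate signalling and are themselves induced by it, and CYP94 enzymes oxidise the active hormone. Of 16 genes tested, 14 had a positive change, against 12429 of all 18682 genes tested. Of the same 16, 3 were called higher, against 0.412% of all genes tested. The median was 2.12, against 0.42 over all genes. Over detected genes its median was 1.37 for 7 genes, below the 2.395 of the 8 detected genes of the epidermis and root hair list. CYP94B1 had 86.4, 105, 81.5 and 93.9 FPKM in wox5-1, against 14, 0.759 and 2.1 FPKM in the wild type (4.41, SE 0.70, adjusted p = 0.0141). JAZ8 had 56.4, 55.2, 50.1 and 53.1 FPKM in wox5-1, against 5.14, 0.524 and 4.33 FPKM in the wild type (3.89, SE 0.63, adjusted p = 0.0147). JAZ10 had 262, 212, 252 and 305 FPKM in wox5-1, against 118, 9.92 and 17.3 FPKM in the wild type (3.16, SE 0.64, adjusted p = 0.0468). In all 3 genes wild-type library 1 was the highest of the wild type and library 2 the lowest.

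JAZ9 had a change of 4.15 and did not pass (adjusted p = 0.0505), and JAZ7 had 3.49 (adjusted p = 0.181). JAZ2 had 960.2, 865, 973 and 939 FPKM in wox5-1, against 279.9, 439 and 230.0 FPKM in the wild type, and was called among detected genes (1.61, adjusted p = 0.0454). Without wild-type library 2, 9 of the 16 genes were called higher, against 5.32% of all genes tested. The list median was then 2.05, against 0.17 over all genes.

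The genes that make jasmonate had positive changes in 13 of 13 cases, with a median of 1.31. Of these, 0 were called over all genes. At an unadjusted p under 0.05, 7 of the 13 were higher, against 2420 of all 18682 genes tested. ACX1, an acyl-CoA oxidase of the pathway, had 148, 150.1, 137 and 129.6 FPKM in wox5-1, against 71.2, 41.8 and 59.7 FPKM in the wild type, and was called among detected genes (1.31, adjusted p = 0.0366). AOC1, an allene oxide cyclase, had a change of 5.37 (SE 1.295, adjusted p = 0.0828). AOC1 and AOC2 are close copies whose fragments may be assigned to the wrong gene. JAR1, which conjugates jasmonate to isoleucine, had 112, 175, 91.4 and 84.6 FPKM in wox5-1, against 28.2, 29.1 and 13.5 FPKM in the wild type; it passed neither test (2.26, adjusted p = 0.184 and 0.0651). OPR3 and AOS, central steps of the same pathway, had changes of 1.096 and 0.70 without passing. RAP2.6 and FAMT, chosen after their values were seen, were called among detected genes with changes of 3.63 and 3.27.

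In the water deficit list all genes pointed one way and 1 passed. All 19 tested genes of the list on water deficit and abscisic acid had positive changes, against 12429 of all 18682 genes tested. The median was 1.18, or 0.61 with quantile normalization. Of the 19, 1 was called higher, against 0.412% of all genes tested. At an unadjusted p under 0.05, 5 of the 19 were higher, against 2420 of all 18682 genes tested. RD29A, a classic target of abscisic acid and cold, had 58.5, 85.6, 82.8 and 51.2 FPKM in wox5-1, against 20.7, 0.455 and 0.111 FPKM in the wild type (4.40, SE 0.78, adjusted p = 0.0254). Wild-type library 1 was well above libraries 2 and 3. ABI1, a phosphatase that restrains abscisic acid signalling, had 201, 205, 209.8 and 185 FPKM in wox5-1, against 66.9, 138 and 30.2 FPKM in the wild type, and was called among detected genes (1.59, adjusted p = 0.0463). ERF53 had a change of 4.90 (adjusted p = 0.0589).

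A few called genes outside that list, picked because they were called, are given by their values only, and they add nothing to the count of 1 in 19. LEA4-5, a late embryogenesis abundant protein that protects dry cells, had 109, 112, 147 and 123 FPKM in wox5-1, against 23.9, 0 and 6.93 FPKM in the wild type (4.40, SE 0.71, adjusted p = 0.0147). AT3G15670, of the same protein class, rose by 4.72, and RD26, a NAC factor induced by drought, rose by 4.27. PYL7, an abscisic acid receptor, had 18.4, 13.5, 15.8 and 16.3 FPKM in wox5-1, against 2.04, 0.169 and 0 FPKM in the wild type (3.47, SE 0.59, adjusted p = 0.0206). SLAH3, an anion channel opened in abscisic acid signalling, rose by 4.07, and NAC3 rose by 3.96. MYBR1, also known as MYB44, was a detected gene: it had 148, 138, 146 and 164 FPKM in wox5-1, against 33.5, 25.7 and 46.3 FPKM in the wild type (2.09, SE 0.39, adjusted p = 0.0335). The dehydrins LTI30 and ERD14 and the proline synthesis gene P5CS1 were called among detected genes only, with changes of 3.85, 1.56 and 2.79. P5CS1 stood at 1.71 FPKM in wild-type library 2, and its change was 1.36 without that library.

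Genes of the response to xenobiotics and oxidation had positive changes in 22 of 22 cases, against 12429 of all 18682 genes tested, with a median of 1.25. MSRB8 was called over all genes. CYP81D11, OPR2, NAC032 and GPX6 were called among detected genes, for example CYP81D11 with 423, 304, 338 and 440.2 FPKM in wox5-1, against 111, 9.64 and 1.44 FPKM in the wild type (4.71, adjusted p = 0.0166). NAC032, a stress-induced NAC factor, had 223, 207, 227 and 288 FPKM in wox5-1, against 55.3, 96.3 and 30.9 FPKM in the wild type (2.07, adjusted p = 0.027). The glutathione transferases as a family had a median of 0.77 over 30 genes with GSTU6 called, and 24 of the 30 had a positive change. GSTU4 had a change of 4.22 and did not pass (adjusted p = 0.0505).

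Wound and touch genes had positive changes in 17 of 17 cases, with a median of 1.56, or 0.93 with quantile normalization. Over all genes, 0 were called. At an unadjusted p under 0.05, 6 of the 17 were higher, against 2420 of all 18682 genes tested. WRKY40 had 425, 487, 398 and 393 FPKM in wox5-1, against 131, 49.6 and 68.1 FPKM in the wild type, and was called among detected genes (2.46, adjusted p = 0.0296). The kinase MPK3, chosen after its values were seen, had 211, 226, 227 and 144 FPKM in wox5-1, against 51.1, 39.97 and 57.6 FPKM in the wild type, and was called in the same test (1.998, adjusted p = 0.0454). All 7 libraries came from enzyme-digested roots, and no library of undigested tissue is in the table. The part that digestion has in these lists was not tested.

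**Figure D4:**
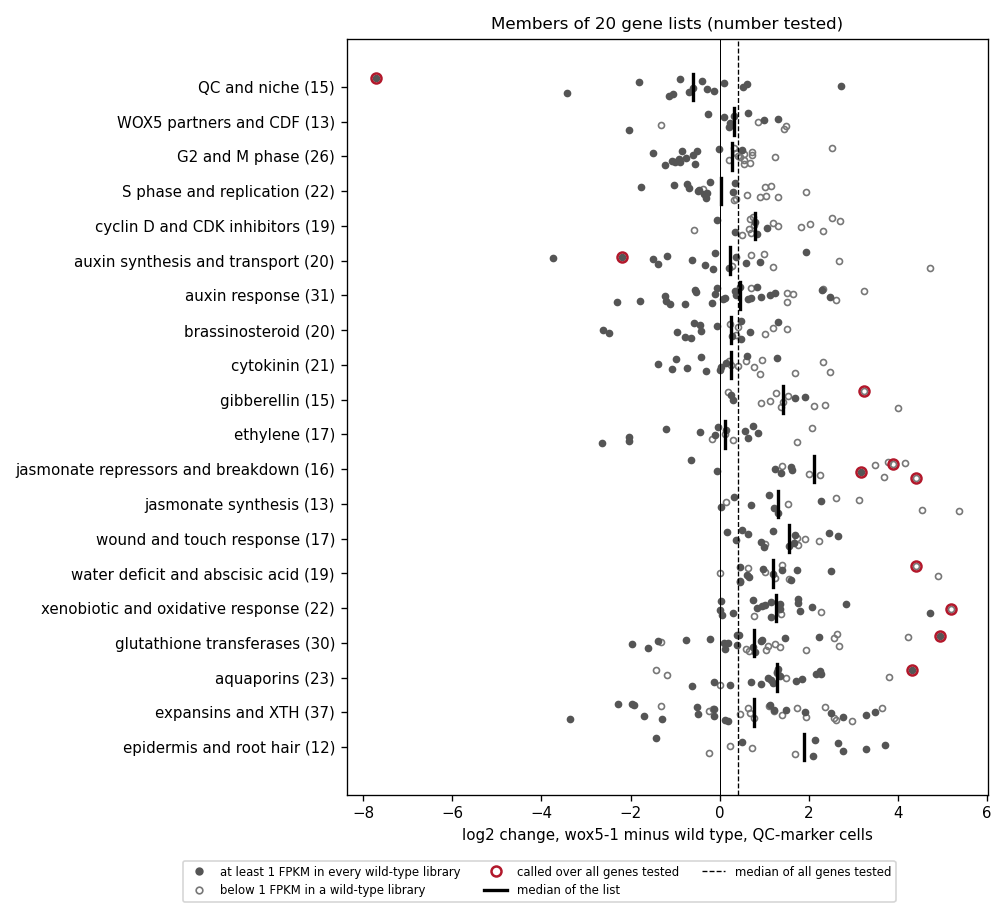
Change (wox5-1 minus wild type, log2) of each tested member of 20 gene lists, with the list median as a black bar, called genes circled, detected genes filled and other genes open, and the median of all genes tested (0.42) as a dashed line. Medians run from −0.60 for QC and niche genes to 2.12 for jasmonate repressors and breakdown, and the detected members of the G2 and M phase list have a median of −0.86.

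Gibberellin genes had a positive change in 15 of 15 cases, against 12429 of all 18682 genes tested, with a median of 1.41. RGL3, a DELLA repressor of gibberellin response, had 12.3, 10.7, 11.8 and 16.4 FPKM in wox5-1, against 1.46, 0.111 and 0.0838 FPKM in the wild type (3.25, SE 0.63, adjusted p = 0.0406). GID1B, a gibberellin receptor, had 53.7, 64.7, 48.2 and 47.2 FPKM in wox5-1, against 21.2, 13.2 and 8.32 FPKM in the wild type, and was called among detected genes (1.92, adjusted p = 0.024). Only 4 of the 15 genes were detected genes. With quantile normalization the list median was 0.51.

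The auxin, brassinosteroid, cytokinin and ethylene lists had medians of 0.45 (auxin response), 0.23 (auxin synthesis and transport), 0.26, 0.24 and 0.12, with WAG2 as the 1 gene called. The median of all genes tested was 0.42. Without wild-type library 2 the medians of the last 4 lists were −0.18, −0.20, −0.06 and −0.21, against 0.17 over all genes tested. With quantile normalization they were −0.21, −0.41, −0.44 and −0.59, against −0.07. The last 4 lists lay below the median of all genes tested in each of these settings. PIN2, an auxin efflux carrier, had 31.8, 26.9, 26.1 and 28.7 FPKM in wox5-1, against 114, 48.2 and 76.4 FPKM in the wild type, without passing (−1.38, adjusted p = 0.345). IAMT1, which methylates auxin, had 34.5, 18.3, 12.7 and 57.8 FPKM in wox5-1, against 0.143, 0 and 0 FPKM in the wild type (adjusted p = 0.0888). ACS8, of ethylene synthesis, had 2.04 to 4.17 FPKM in wox5-1 and 9.23 to 25.1 FPKM in the wild type (−2.03, adjusted p = 0.228).

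Cell cycle genes did not pass in either direction. WOX5 is known to restrain division of the QC through D-type cyclins, which gives these lists their interest. Over all genes, 0 of 26 genes of G2 and M phase and 0 of 22 of S phase were called. Of the 19 D-type cyclins and inhibitors, 0 were called. In turn, 2 (1 higher and 1 lower), 0 and 4 (all higher) stood at an unadjusted p under 0.05. Of all 18682 genes tested, 2420 were higher and 249 lower at that threshold. The median of the G2 and M genes was 0.27 over all 26 and −0.86 over the 13 detected ones, and over all 26 it turned to −0.43 without wild-type library 2 and to −0.59 with quantile normalization. The S phase genes had medians of 0.04 over 22 and −0.41 over the 12 detected, and over all 22 it turned to −0.26 without wild-type library 2, −0.12 under median-of-ratios scaling and −0.42 under quantile normalization. CYCD3;3 had 60.04, 65.3, 55.6 and 43.3 FPKM in wox5-1, against 18.1, 0.131 and 65.7 FPKM in the wild type, with a change of 2.32 and, without wild-type library 2, of 0.66. AUR1, a mitotic kinase, had 14.7, 12.6, 11 and 11.2 FPKM in wox5-1, against 16.1, 57.4 and 29.8 FPKM in the wild type (−1.23, adjusted p = 0.329). In CYCD3;3 the genotypes overlapped, while in AUR1 every wild-type library lay above every mutant one.

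Aquaporins had a median of 1.28 over 23 genes and the same median over the 17 detected ones. TIP2;3 was called over all genes. TIP2;2, its close relative, had 960.5, 755, 785 and 1252 FPKM in wox5-1, against 115, 297 and 212 FPKM in the wild type, and was called among detected genes (2.24, adjusted p = 0.0463). TIP1;1, an aquaporin of the vacuolar membrane, had 520.3, 309.8, 375 and 686 FPKM in wox5-1, against 164, 63.2 and 98.4 FPKM in the wild type without passing (2.15, adjusted p = 0.202). The list of expansins and xyloglucan hydrolases had a median of 0.76 over 37 genes and of 0.00 over the 20 detected.

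In the epidermis and root hair list 10 of 12 changes were positive, against 12429 of all 18682 genes tested. None of the 12 genes of the epidermis and root hair list was called over all genes. At an unadjusted p under 0.05, 5 of the 12 were higher, against 2420 of all 18682 genes tested. The list median was 1.89, against 0.42 over all genes tested, or 0.91 without wild-type library 2, against 0.17. Without that library 5 of the 12 were called higher, against 5.32% of all genes tested. LRX1, an extensin-like wall protein of root hairs, had 205, 255, 269.5 and 312 FPKM in wox5-1, against 8.17, 75.3 and 9.93 FPKM in the wild type, and was called among detected genes (3.71, adjusted p = 0.0299). The growth regulator RSL4 and the wall protein gene PRP3 had changes of 2.13 and 2.66 without passing. The epidermis regulator WER went the other way without overlap, with 12.2 to 18.7 FPKM in wox5-1 and 34.2 to 56.7 FPKM in the wild type (−1.44, adjusted p = 0.447), and the bHLH genes EGL3 and GL3 had changes of −0.25 and 0.22. EXPA7, a root hair expansin, had 227, 279.5, 343 and 379.6 FPKM in wox5-1, against 7.45, 246 and 13.8 FPKM in the wild type. Wild-type library 2 fell among the mutant values in EXPA7, which did not pass (3.27, adjusted p = 0.141), and without that library its change was 4.76 (adjusted p = 0.000754).

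Other genes known from root hairs were picked because they were called among detected genes, of which 1.93% were called higher, and they add nothing to the list's own count of 1 called in 8 detected genes. COW1, needed for root hair tip growth, had 91, 89.2, 97.1 and 119.7 FPKM in wox5-1, against 4.52, 17.9 and 5.12 FPKM in the wild type (3.53, adjusted p = 0.0101). LRX2, a partner of LRX1, had 127, 123, 148 and 180.5 FPKM in wox5-1, against 31.1, 23.9 and 21.2 FPKM in the wild type (2.46, adjusted p = 0.0144). PERK13, GH9C1, EXT10, EXT6, RHS13, SHV3, XTH14 and LRL3 were called in the same test with changes between 1.91 and 4.23. In CEI-marker cells COW1, LRX2 and all of these genes also had positive changes, from 0.73 (SHV3) to 2.49 (EXT10). The median there over all genes tested was 0.01. These genes mark another cell type than the one sorted. The summed level of the epidermis and root hair list was 1659 to 2806 FPKM in wox5-1, against 292, 1810 and 541 FPKM in the wild type (exact permutation test, p = 0.0571).

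The epidermis and root hair sums overlapped between the genotypes. The summed levels of the other marker lists moved by less. Young ground tissue markers summed to 86.9 to 102 FPKM in wox5-1 and 105 to 165 FPKM in the wild type, and stele and pericycle markers to 146 to 216 FPKM in wox5-1 and 84.5 to 122 FPKM in the wild type. Neither pair of ranges overlapped (exact permutation test, p = 0.0286 each, the smallest 4 against 3 libraries allow, and 0.1 after adjustment over 7 lists). Root cap markers summed to 361 to 479 FPKM in wox5-1, against 215, 1127 and 922 FPKM in the wild type (p = 0.343, exact permutation test). Of the 11 root cap genes tested, 8 had a positive change and 0 were called. At an unadjusted p under 0.05, 2 were higher and 0 lower, against 2420 and 249 of all 18682 genes tested. CLE40, a peptide of the distal niche, had 8.27, 9.32, 6.8 and 4.61 FPKM in wox5-1, against 0, 0 and 2.32 FPKM in the wild type (2.43, adjusted p = 0.148), and PIN7 and FEZ had changes of 2.66 and 1.799. BRN2, a factor of the maturing root cap, had 10.1, 6.42, 10.8 and 21.2 FPKM in wox5-1, against 30.7, 301 and 70.5 FPKM in the wild type (−2.86, adjusted p = 0.389). Differentiating endodermis markers summed to 50.1 to 197 FPKM in wox5-1, against 511, 16.3 and 51.1 FPKM in the wild type (p = 0.743, exact permutation test), and green tissue markers to at most 21.9 FPKM in any library. The part that other cell types in the sort have in the called genes was not tested.

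**Figure D5:**
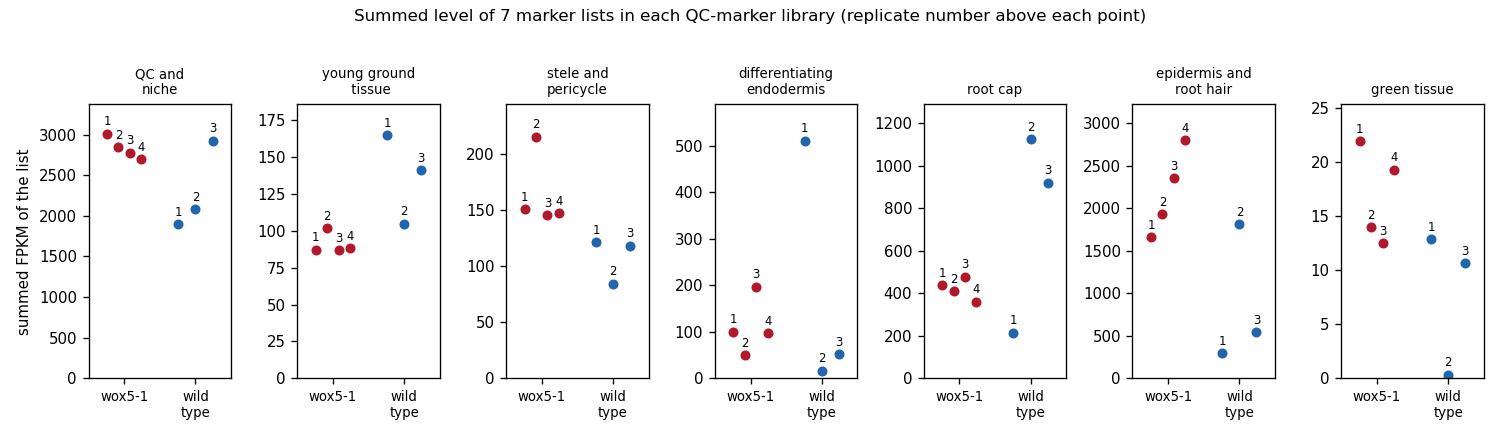
Summed FPKM of 7 marker lists in each QC-marker library, wox5-1 on the left and wild type on the right, with the replicate number above each point. QC and niche markers sum to 1901 FPKM or more in every library, RGF2 and RGF3 giving 2082 to 2400.2 FPKM of it in wox5-1 and 693 to 1729 FPKM in the wild type, while epidermis and root hair markers run from 1659 to 2806 FPKM in wox5-1 and from 292 to 1810 FPKM in the wild type.

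The change in CEI-marker cells of the same genotypes was taken from separate libraries. It was above 0 for 65 of the 77 genes higher in wox5-1 QC-marker cells, with a median of 0.67, against 9503 of the 18682 genes tested and a median of 0.01. It was below 0 for 5 of the 7 lower genes, WOX5 among them at −2.62. GSTU6, JAZ8, CYP94B1 and LEA4-5 had changes in CEI-marker cells of 0.06, −0.11, −0.09 and −0.19, while TIP2;3, RD26 and AT5G63270 had 1.505, 2.07 and 2.41. The difference between the effects in the 2 cell types passed for 0 genes (limma, adjusted over 18682 genes; 1393 at an unadjusted p under 0.05), and for 3 genes without weights by group. For WOX5 it was −5.10 (adjusted p = 0.539). No gene is therefore shown to change in one cell type and not in the other.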

How the data were processed

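RNA from sorted root cells was sequenced in 13 libraries of 4 groups. The authors deposited 1 table of FPKM values, made with Cufflinks per the submitters' processing notes, which give no version. No source used here names the aligner, genome build or annotation, and coordinates are therefore left out. The low-input kit has no molecular identifiers named, and depth was estimated from the steps in FPKM: 37.9 to 47.7% of low values in the QC-marker libraries fell within 0.1 of a whole fragment, against 20% by chance. RefSeq (TAIR10.1) matched 32826 of 33560 gene IDs and gave the names. Of the per-sample columns, 0 were left unmapped. The CEI-marker columns carry numbers that do not match the sample titles and were mapped by group.

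Genes at 1 FPKM or more in 3 of the 7 QC-marker libraries were tested as log2(FPKM + 1) with limma 3.58.1 in R 4.3.3, over all 13 libraries, with a mean-variance trend and weights by group. Every adjusted p for a gene in the text is limma's, with Benjamini-Hochberg adjustment over 18682 genes, or over the 10423 detected genes where so stated, at a threshold of 0.05. Summed marker levels were compared by a two-sided exact permutation test, whose smallest p is 0.0286. The code was tested on simulated data.

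By rule, the text names the 12 largest called increases among detected genes with a symbol, the called decreases with a symbol, the 5 largest called increases among the other genes with a symbol, and up to 4 members of each list by p. Other genes were named after their values were seen. The text describes only part of the list members that the rule picks, and 1 of them is not reported here. The members and the 34 lists were chosen with earlier results of these data known. The labels call replicates biological without saying what was separate, so p-values measure the spread between these libraries. Alternatives were the scaling, pseudocount, filter, weights, libraries in the fit, a replicate block and leaving out each library.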

Additional observations from a re-analysis of the deposited data

Results flagged for a closer look

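In 7 of 184 named genes, 1 of the 4 wox5-1 libraries stood far from the other 3. Chance gives such a gap in about 1 in 20 groups of 4. IAA31, an auxin response repressor, had 17.36 FPKM in replicate 4 and 11.2 to 12 FPKM in the others. The proton pump gene AHA8 had 2.24 FPKM in replicate 1 and 1.33 to 1.39 FPKM in the others. F3'H, of flavonoid synthesis, had 1.87 FPKM in replicate 2 and 11.4 to 15.7 FPKM in the others. AT5G24510 had 0.611 FPKM in replicate 1 and 1.13 to 1.18 FPKM in the others, and was listed at 0 in all 3 wild-type libraries. The root hair gene LRL3 had 269.8 FPKM in replicate 4 and 190.1 to 192 FPKM in the others. MPK3 had 144 FPKM in replicate 4 and 211 to 227 FPKM in the others. AT3G17100 had 36.05 FPKM in replicate 3 and 87.7 to 102 FPKM in the others.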

How the results depend on the processing

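Against 84 genes called over all genes tested (77 higher and 7 lower in wox5-1), the number was 29 (25 and 4) under median-of-ratios scaling, 403 (315 and 88) under quantile normalization, 1 (1 and 0) with a pseudocount of 0.1, 176 (156 and 20) with a pseudocount of 5, 135 (121 and 14) with no filter, 863 (773 and 90) without weights by group, and 236 (201 and 35) on detected genes only. A fit to the 7 QC-marker libraries without weights, chosen after the data were seen, called 1009 (833 and 176). Leaving out 1 library gave 0 to 1127 calls, 0 to 993 higher and 0 to 134 lower, the 0 without wild-type library 1 or 3 and the most without wild-type library 2. None of the 84 genes passed in all 7 fits that left out a QC-marker library, and 50 passed in all but those without wild-type library 1 or 3. Among detected genes, the 201 higher calls became 53 with median-of-ratios scaling, the 35 lower calls became 91 without weights, and leaving out 1 library gave 1 to 821 higher and 1 to 174 lower. For the difference between cell types, 3 genes were called without weights and 0 to 1 with a library left out, the 1 without wox5-1 replicate 3. The cause of these shifts was not tested.

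Deviations of same-numbered libraries had r of 0.05, 0.10 and −0.05 across genes for numbers 1, 2 and 3. Pairs with different numbers had r from −0.14 to 0.13. With so few libraries, this cannot tell whether same-numbered libraries were handled together. With a replicate block, the 7 QC-marker libraries gave 227 calls (179 higher and 48 lower), against 92 (83 and 9) without a block. Among detected genes the block fit gave 119 higher and 76 lower.

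Of 4318 alternative values for the 184 named genes, 12 turned in direction, in 9 genes, none of them among the 40 called ones. Without wild-type library 2 the changes were lowest, and without wild-type library 1 or 3 highest, over the fits that left out 1 library: PAN −0.76 to 1.74, CASP1 −0.43 to 3.14, ESB1 −0.36 to 1.87, GSO1 −0.39 to 1.26, BZR1 −0.20 to 2.54 and AT5G47940 −0.024 to 1.49. With quantile normalization they were ESB1 (−0.37), GSO1 (−0.44), PSAD1 (−0.17), LHCA3 (−0.47), AT5G47940 (−0.12) and AT5G24510 (−0.14). Wild-type libraries 1 and 2 had similar estimated depths, about 6900000 and 5800000 fragments, but 10788 and 19783 genes at 0. The cause of the zeros in library 2 was not tested.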

Other observations

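The endoplasmic reticulum stress list had a median change of −0.29 over 13 genes, against 0.42 over all genes tested, with 6 of 13 positive, 0 called, and 2 higher and 2 lower at an unadjusted p under 0.05. PDI6, a protein disulfide isomerase, had 43.4, 32.1, 45.1 and 36 FPKM in wox5-1, against 102, 113 and 129.7 FPKM in the wild type (−1.53, adjusted p = 0.201), and the chaperone BIP2 had 108 to 176 FPKM in wox5-1 and 335 to 454 FPKM in the wild type (−1.48, adjusted p = 0.275). Neither gene overlapped between the genotypes. The other pair had positive changes: the transcription factor gene BZIP60 had a change of 1.98 (adjusted p = 0.252), or 0.42 without wild-type library 2, and BIP3 had a change of 1.68 (adjusted p = 0.291). The list of programmed cell death had a median of −0.66 over 6 genes, cytosolic ribosomal proteins −0.07 over 15 and heat shock genes 0.30 over 14, with 0 called and 0, 2 and 0 at an unadjusted p under 0.05. Without wild-type library 2 the heat shock median was −0.28 and the ribosomal median −0.44, against 0.17 over all genes tested, whose median was 0.42 with that library. The ribosomal list held only 20 genes, picked by RefSeq description, and its median is read for its tested members alone.

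Nutrient lists had medians of 1.32 (amino acid and nitrate transport, with AAP1 called), 0.99 (proton pumps, with AHA7 called), 1.16 (iron deficiency, 0 of 12 called) and 0.85 (phosphate starvation, 0 of 11 called). Over detected genes these medians were 0.21, −0.03, 0.49 and 0.24, without wild-type library 2 they were 0.68, 0.46, 0.85 and 0.72, and with quantile normalization 0.42, 0.47, 0.29 and 0.32. At an unadjusted p under 0.05, 1 of 12 iron genes and 4 of 11 phosphate genes were higher, against 2420 of all 18682 genes tested. In flavonoid synthesis MYB12, a regulator of flavonol genes, had 53.9, 49, 68.2 and 41.6 FPKM in wox5-1, against 6.86, 0.147 and 4.22 FPKM in the wild type, and rose by 3.89 (SE 0.78, adjusted p = 0.0446). CHS, the first enzyme of the pathway, overlapped between the genotypes, with 776 to 1187 FPKM in wox5-1 and 196 to 919 FPKM in the wild type.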
